A study of Homo sapiens with 2 samples.

Results

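The islet transcription factors described here are a set of 9 genes that set up and maintain the hormone-producing cells of the pancreas, ISL1, NEUROD1, NKX2-2, NKX6-1, PAX6, PDX1, RFX6, MNX1 and FOXA2. They were measured in QGP1, an established human cell line from a pancreatic neuroendocrine tumour (pNET). The members are all probe sets that the platform annotation assigns to 1 of these symbols alone. This gave 13 probe sets for 8 of the 9 genes, out of 54613 compared probe sets and 19775 named genes. NEUROD1 had no such probe set and was not analysed here.

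The study set QGP1 cells with high aldehyde dehydrogenase (ALDH) activity, obtained by fluorescence-activated sorting, against control QGP1 cells, to profile a fraction enriched for cancer stem-like cells. Each group was 1 Affymetrix expression array, and both groups are the same cell line with no added agent named in the labels. The sources used here do not say how the control cells were handled before RNA extraction. With 1 array per group no difference below has a replicate check, a standard error or a p-value, and higher and lower refer to these arrays alone. Fewer cells expressing a gene and less RNA per cell cannot be told apart in such bulk RNA.

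Islet transcription factors act in a cascade. FOXA2 opens foregut chromatin, PDX1 and MNX1 mark the early pancreatic bud, and RFX6, NKX2-2, NEUROD1, PAX6 and ISL1 act as endocrine cells form and mature, with NKX6-1 kept in beta cells. ISL1, PDX1, NKX2-2, NKX6-1, PAX6 and MNX1 carry a homeodomain, a DNA-binding domain whose most common core is read as TAAT. NKX2-2 is of the NK2 class, whose homeodomains prefer a core with the letters AAGTG. NEUROD1 is a basic helix-loop-helix factor that binds the E-box CANNTG, RFX6 belongs to the winged-helix RFX family, and FOXA2 has a forkhead domain. ISL1 also has a pair of LIM domains, through which it joins the adaptor LDB1 and other LIM factors.

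The promoters of the members with the largest differences in each direction, ISL1 (higher in ALDH high) and MNX1 (lower), are shown to place their sequence beside the values. They come from RefSeq, build GRCh38.p14, and cover the 250 bases before the annotated start. ISL1 lies on the plus strand at chr5:51383198-51383447 and MNX1 on the minus strand at chr7:157010664-157010913. Both are printed 5′ to 3′ on the gene's strand, with capitals marking every match to TAAT or CANNTG on either strand.
ISL1: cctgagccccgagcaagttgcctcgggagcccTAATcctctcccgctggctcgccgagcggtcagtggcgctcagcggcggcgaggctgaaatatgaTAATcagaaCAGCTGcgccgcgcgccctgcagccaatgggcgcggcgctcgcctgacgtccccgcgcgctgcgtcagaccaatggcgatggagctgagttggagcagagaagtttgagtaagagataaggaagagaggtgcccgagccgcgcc
MNX1: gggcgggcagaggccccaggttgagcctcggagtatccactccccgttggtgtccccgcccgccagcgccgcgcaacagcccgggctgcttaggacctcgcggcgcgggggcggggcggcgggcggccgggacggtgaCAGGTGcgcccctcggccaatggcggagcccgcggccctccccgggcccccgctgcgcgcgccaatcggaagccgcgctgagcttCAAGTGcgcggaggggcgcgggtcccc

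The ISL1 window held 2 TAAT matches, 218 and 153 bases before the start, and 1 E-box, CAGCTG, 144 bases before it. The MNX1 window held no TAAT match and 2 E-boxes, CAGGTG at 112 and CAAGTG at 27 bases before the start. TAAT was found in 47.4% and CANNTG in 61.8% of 35116 promoter windows of the same length, so both are common. AAGTG (either strand) was found in 37.6% of all windows, not in ISL1 and 1 time in MNX1, where it lies within the E-box CAAGTG. The CCAAT box (CCAAT, either strand) was found 2 times in each window and in 32% of all windows. The core of the cyclic AMP response element (TGACG, either strand) was found 2 times in ISL1 and not in MNX1, and in 21.2% of all windows. The GC box (GGGCGG, either strand) was not found in ISL1, was found 5 times in MNX1 and in 42.6% of all windows. MNX1 was the more GC-rich window at 78.8% against 65.2%, where the median window had 58%. Of the other members with an entry, NKX2-2 and PAX6 had 1 TAAT match each, while NKX6-1 and NEUROD1 had none. For MNX1, NKX2-2 and PAX6, which have several starts in the table, the outermost start was used. A match is a run of letters, not a bound site, and no binding was measured here.

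ISL1 was the member that differed most, and it was higher in the ALDH-high cells. Its single probe set read 10.29 on the ALDH-high array and 9.05 on the control array, as log2 RMA levels. Both levels were bright, at the 93.7th and 86.1st percentiles of their arrays, so the difference does not rest on a level near the floor. ALDH high minus control was 1.24 on the log2 scale, or 2.36-fold. Over 2-fold higher, the threshold used in the series description, were 0.465% of all genes, and ISL1 was the only 1 of the 8 measured members there. Only 38 of 19775 genes had a larger positive difference. ISL1 has no second probe set, so no other part of its transcript could be compared.

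As a yardstick, the differences of probe sets of the same gene had a pooled SD of 0.18 over 6064 genes with several probe sets at or above the median level of 5.68. The ISL1 difference was 6.83 times this SD. The SD describes how far probe sets of a gene disagree on these arrays and leaves out the spread between cultures and sorts. The poly-A control RNAs, which are added before labelling, also read higher on the ALDH-high array. The mean offset of their 24 probe sets was 0.32 with an SD of 0.07, and that of the 18 hybridisation control probe sets was 0.05 with an SD of 0.04. The part of this offset in the member values was not tested.

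MNX1 was the second largest difference and went the other way. MNX1, a homeodomain factor of the early pancreatic bud and of motor neurons, read 8.81 on the ALDH-high array and 9.58 on the control array, at the 84.1st and 89.8th percentiles. The difference of -0.77 on the log2 scale, a 1.70-fold lower level, did not reach 2-fold. No member was over 2-fold lower, against 1.23% of all genes. At 1.5-fold MNX1 was the 1 member lower, against 4.21% of all genes, and ISL1 the 1 member higher, against 2.61%. MNX1 also rested on 1 probe set.

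**Figure D1:**
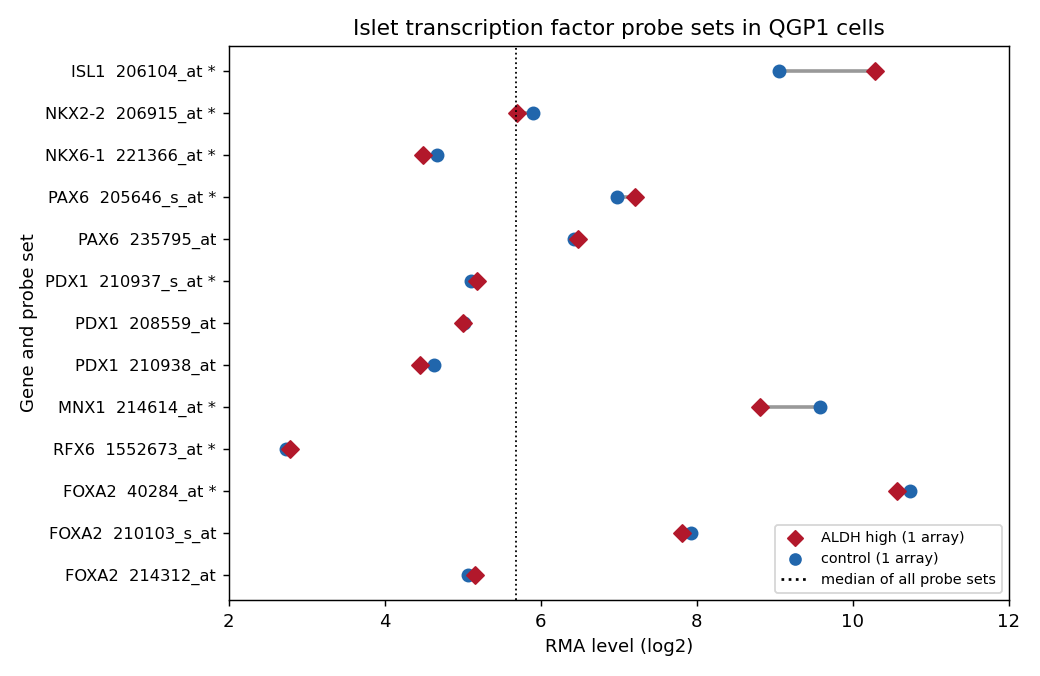
RMA levels (x axis, log2) of the 13 probe sets of the 8 measured islet transcription factors (y axis), with a red diamond for the ALDH-high array, a blue circle for the control array and a line joining them. An asterisk marks the probe set that stands for its gene and the dotted line is the median of all probe sets. ISL1 (10.29 against 9.05) and MNX1 (8.81 against 9.58) are the probe sets with a clear gap, in opposite directions.

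Of the 13 member probe sets 1 was over 2-fold different in either direction, against 1.25% of all probe sets, and 2 over 1.5-fold, against 5.87%. The remaining 11 all lay within 0.25 of 0. FOXA2, the forkhead factor of the foregut, was bright and nearly level. Its brightest probe set read 10.57 on ALDH high and 10.73 on control, a difference of -0.17, at the 94.8th and 95.5th percentiles. Its other probe sets differed by -0.11 (7.81 against 7.93) and by 0.09 (5.16 against 5.07), the last at a dim level. The probe set at -0.11 has an identifier of the kind open to cross-hybridisation. The brighter FOXA2 probe sets therefore pointed to slightly lower values and the dim one to a slightly higher value, all within the yardstick SD.

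PAX6, a paired-domain and homeodomain factor needed for islet hormone cells, read slightly higher in ALDH high on both of its probe sets. The brighter one read 7.21 on ALDH high and 6.97 on control, a difference of 0.24. That probe set has an identifier of the kind open to cross-hybridisation. The other read 6.47 and 6.42, a difference of 0.05. Of all genes, 33.8% had a larger absolute difference than PAX6, so this value is an ordinary one on these arrays.

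NKX2-2, a homeodomain factor of beta and other endocrine cells, read 5.69 on ALDH high and 5.90 on control, close to the median of all probe sets. Its difference of -0.21 was exceeded in size by 39.7% of genes.

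NKX6-1, PDX1 and RFX6 were dim on both arrays. NKX6-1, the beta cell homeodomain factor, read 4.49 on ALDH high and 4.67 on control, a difference of -0.18 at the 29.5th and 32.2nd percentiles. PDX1, the factor of the pancreatic bud and of beta cells, had 3 probe sets, which read 5.18 against 5.10, 5.01 against 5.02 and 4.45 against 4.63 in ALDH high against control. Their differences of 0.08, -0.01 and -0.18 had no common sign. RFX6, which acts upstream of endocrine differentiation, read 2.79 and 2.73, at the 6.68th and 5.81st percentiles. The files carry no detection calls, so for these 3 genes the levels cannot be told from absence. The same lack of calls applies to NKX2-2, whose levels lay close to the median of all probe sets.

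**Figure D2:**
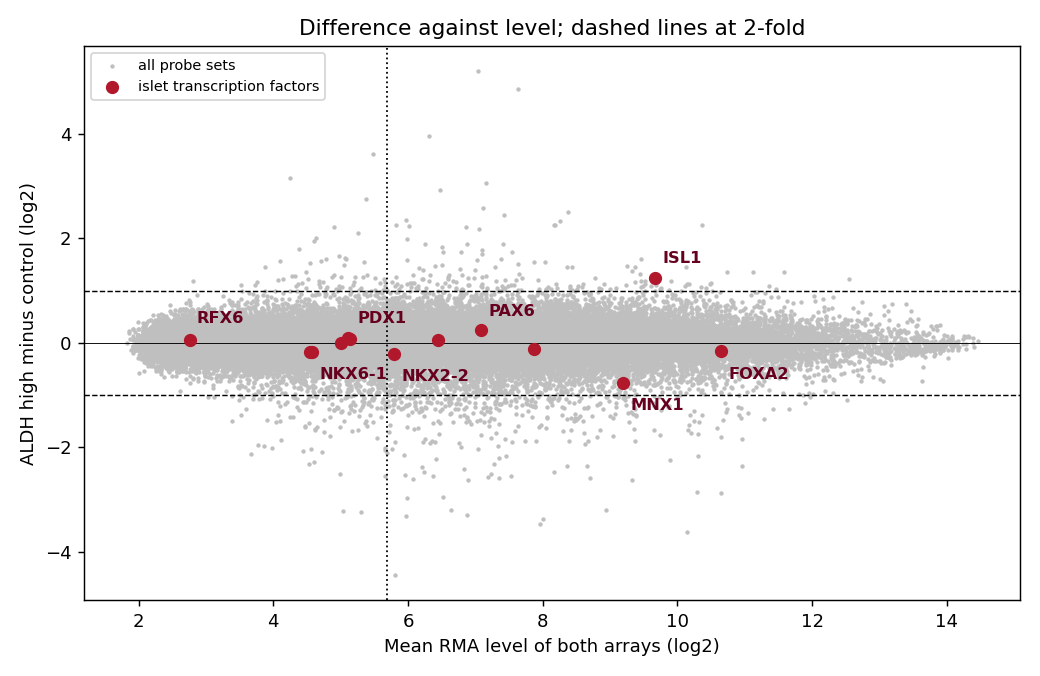
Difference ALDH high minus control (y axis, log2) against the mean level of both arrays (x axis, log2) for all 54613 probe sets (grey) and the 13 islet factor probe sets (red), the label standing at the probe set used for the gene. Dashed lines mark 2-fold and the dotted line the median level; ISL1 at 1.24 lies above the upper line, MNX1 at -0.77 inside the lower one, and the others near 0.

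As a group the islet factors had no common direction. Of the 8 measured genes, each taken at its probe set with the highest mean level, 4 were above 0 and 4 below. Their median difference was -0.05, against -0.01 over all 19775 genes, while their mean was 0.04. Without ISL1 the median was -0.17. At least 1 array put 5 of the 8 at or above the median of all probe sets, namely ISL1, MNX1, FOXA2, PAX6 and NKX2-2.

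Some differences are not particular to their probe set. For 29.5% of all probe sets the size of the difference, taken to 6 decimals, was shared by 20 or more probe sets. This held for 4 of the 13 member probe sets, those of RFX6 and NKX6-1, the brightest of PDX1 and the dimmest of FOXA2. ISL1, MNX1 and both PAX6 probe sets were not among them.

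The genes most like ISL1 were taken as the 3 genes, at or above the median level on at least 1 array, whose difference over the 2 arrays was closest to its own. They were PSRC1, a spindle-associated protein (1.24), RGS4, a regulator of G protein signalling (1.23), and NTN4, a netrin of basement membranes (1.26). NTN4 read 5.84 on ALDH high and 4.58 on control, so it met the level rule only through the ALDH-high array. With 2 arrays this is a likeness of 1 number only.

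The adaptors and relatives of ISL1 did not share its difference. Of 14 measured genes in this list, 5 were above 0 and 9 below, and the median was -0.13. None was over 2-fold, where 0.465% of all genes were higher and 1.23% lower, so a short list will mostly hold none. LDB1, the adaptor that bridges LIM factors, read 8.47 on ALDH high and 8.35 on control, a difference of 0.12. ISL2, the closest relative of ISL1, was lower, at 5.44 against 6.18, a difference of -0.74 at a level near the median. LMO3, a LIM-only protein, differed by 0.58 (6.82 against 6.24), but its 4 probe sets ran from -0.19 to 0.58. LMO4, another LIM-only protein that can occupy LDB1, was lower on all 5 probe sets, from -1.19 to -0.34. LDB1 and LMO4 were named after their values were seen. The same holds below for PROX1, FOXA1, TLE2, SST, DDC, PTPRN2, INS, GCG, IAPP, REST, MEN1, CHGA, CHGB, SCG2, INSM1 and KRT19.

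Among 24 other endocrine lineage factors 8 were above 0 and 14 below, with a median of -0.07. None was over 2-fold, against 0.465% of all genes higher and 1.23% lower. Without dim probe sets the median turned to 0.11, over 14 genes. The highest were ST18, a zinc finger factor of endocrine and neural cells, at 0.73 (10.78 against 10.05), and ETV1, an ETS factor, at 0.67 (11.35 against 10.67). All 5 ETV1 probe sets were above 0, from 0.48 to 0.67, whereas those of ST18 ran from -0.10 to 0.73. PROX1, a homeobox factor of the early pancreas, was higher on all 4 probe sets, from 0.54 to 0.84. INSM1, a zinc finger factor of neuroendocrine cells, read 11.47 and 11.13, a difference of 0.34.

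The 21 foregut and pancreatic progenitor factors were spread to both sides of 0, 10 above and 11 below, with a median of -0.03. This median turned to 0.06 without dim probe sets (17 genes) or without those open to cross-hybridisation (18 genes). With the mean of the probe sets it was 0.03 and with their median 0.01, over all 21 genes. BHLHA15, a factor of secretory cells such as acinar cells, was 1.80-fold lower (7.43 against 8.27) on its single probe set. TLE4, a Groucho corepressor, was 1.70-fold higher (6.92 against 6.15), with its 5 probe sets from -0.20 to 0.77. TLE2 was 1.62-fold lower (8.30 against 8.99), with its 2 probe sets from -0.70 to -0.50. FOXA1, the close relative of FOXA2, read 8.61 and 7.96, a difference of 0.65, and its second probe set differed by 0.76, while FOXA2 itself stood at -0.17.

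Over these factor lists together, 67 different genes were measured. ISL1 had the highest difference of the 67 and was the only 1 over 2-fold higher, against 0.465% of all genes. MNX1 was the second lowest after BHLHA15, and none was over 2-fold lower, against 1.23% of all genes. The members and lists were chosen with earlier results of these data known, so this order is a description, not a test. The 59 factors outside the member set ran from -0.84 to 0.77. At 1.5-fold 5 of the 67 were higher and 5 lower, where 2.61% of all genes were higher and 4.21% lower, and the median was -0.07.

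Islet hormones and genes taken here as targets of islet factors had no common direction. Of 26 measured islet hormones and target genes 9 were above 0 and 14 below, and the median was -0.08. None was over 2-fold, where 0.465% of all genes were higher and 1.23% lower. At 1.5-fold 3 of the 26 were higher and 2 lower, against 2.61% and 4.21% of all genes. SST, the somatostatin gene, a textbook target of PDX1, was bright and higher, at 13.43 on ALDH high against 12.83 on control, a difference of 0.60. INS, GCG and IAPP, the insulin, glucagon and amylin genes, were dim on both arrays, with differences of -0.09, 0.28 and 0. CACNA1A, a calcium channel of secretory cells, was 1.61-fold higher, with 5 probe sets from -0.03 to 0.91, and DDC, the dopa decarboxylase, differed by 0.68 on both of its probe sets. VGF, a granule peptide, differed by -0.80, on a probe set that may bind other transcripts too. PTPRN2 was 1.55-fold lower (9.98 against 10.61), with its 3 probe sets from -0.68 to -0.63.

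Corepressors and chromatin partners had a median of 0.22, with 11 of 15 above 0. None was over 2-fold, against 0.465% of all genes higher and 1.23% lower. The median was 0.09 over the 10 genes left without probe sets open to cross-hybridisation. CREBBP, a histone acetyltransferase, differed by 0.87 (9.35 against 8.47), but its 4 probe sets ran from -0.15 to 0.87. DNMT1, the maintenance DNA methyltransferase, differed by 0.54 on its single probe set, which is open to cross-hybridisation. MEN1, the menin gene mutated in hereditary endocrine tumours, differed by -0.16. REST, the repressor of neuronal and endocrine genes, differed by 0.22, with 3 probe sets from -0.69 to 0.22.

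**Figure D3:**
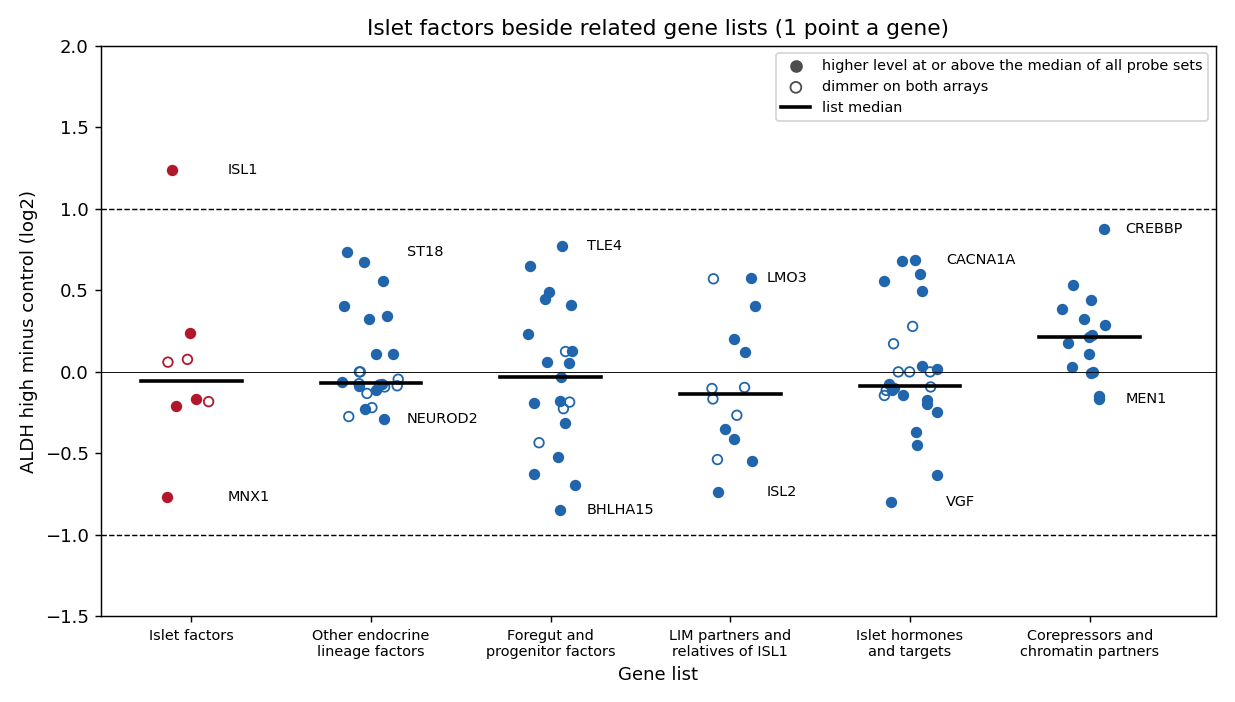
Difference ALDH high minus control (y axis, log2) of each gene, 1 point a gene, in the islet factor set (red) and 5 related lists (blue, x axis), with open circles for genes dimmer than the median on both arrays, a bar for each list median and dashed lines at 2-fold. ISL1 at 1.24 is the only point outside the dashed lines, where 0.465% of all genes were over 2-fold higher and 1.23% lower. The list medians lie between -0.13 and 0.22.

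The cells carried neuroendocrine markers on both arrays. All 12 measured markers were at or above the median level, CHGA, CHGB, SCG2 and INSM1 among the bright ones. Of the 12 markers 10 were below 0 and 1, INSM1, was above. The median difference was -0.14, with SNAP25 at -0.60 and SCG5 at -0.37. Summed linear levels of this list were 49902 in ALDH high and 55457 in control. Markers of other cell types were mostly dim, with 1 of 7 acinar, 2 of 9 fibroblast, 2 of 8 endothelial and 2 of 6 leukocyte markers at or above the median, against 6 of 9 ductal ones. Their summed linear levels in ALDH high and control were 154 and 177 for acinar, 375 and 432 for fibroblast, 289 and 290 for endothelial, 201 and 256 for leukocyte, and 7620 and 9304 for ductal markers. The lower ductal sum rested on TFF1 alone, which read 10.31 on ALDH high and 11.57 on control. Of the ductal markers TFF1, a trefoil peptide, was 2.39-fold lower and SOX9, a progenitor and duct factor, 1.54-fold lower. KRT19 was 1.51-fold higher (10.17 against 9.58), but its 2 probe sets ran from -0.08 to 0.60. The ductal median was -0.09, with 3 of 9 above 0 and 6 below. LYZ and CD14 of the leukocyte list were 2.52-fold and 2.03-fold lower, both at dim levels. The 2 LYZ probe sets differed by -1.33 and -0.42. The largest other values were REG1A (-0.53) among acinar, COL1A1 (-0.28) and DCN (-0.08) among fibroblast, CD3E (-0.18) and ITGAM (0.08) among leukocyte and PECAM1 (-0.12) and CLDN5 (-0.10) among endothelial markers at or above the median level. Probe sets of a gene could disagree, with 5 of COL1A1 from -0.72 to 0.08 and 5 of PECAM1 from -0.76 to 0.01. The part of these differences in the ISL1 and MNX1 values was not tested.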

How the data were processed

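RNA of 1 ALDH-high and 1 control QGP1 sample was labelled with a kit that primes at the poly-A tail and hybridised to 1 array each, per the labels' protocols. The deposited table gives each probe set a log2 level, and the submitters' processing notes name RMA as the tool. It corrects background, quantile-normalises and summarises probes into probe sets. The sources used here give neither its version nor which arrays were normalised jointly. The array medians were 5.68 (ALDH high) and 5.69 (control). The number of arrays limits the precision.

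Of 54675 probe sets, 62 Affymetrix controls were set aside. In GEO's annotation of the platform 41097 had 1 gene symbol, 1801 several and 11777 none in that table; only the first were named. Entrez IDs matched 41043 of them to RefSeq (GRCh38.p14), which changed 0 symbols. A gene takes the value of its probe set with the highest mean level, except where probe sets are given singly. The difference is ALDH high minus control, the threshold 2-fold, and there is no filter and no test. The members and lists were chosen with earlier results of these data known. In each list beside the members the genes named are those over 2-fold, up to 4, and no fewer than the 2 that differed most at or above the median level on 1 array or both. For likeness to ISL1 the 3 genes closest in difference were named. Lists share some genes. Identifiers ending in _s_at, _x_at or _a_at were taken as open to cross-hybridisation. Among genes named this holds for the gene values of PAX6, PDX1, INSM1, LMO3, LMO4, VGF, PTPRN2, CHGA, DNMT1, MEN1, REST, SNAP25, SOX9, COL1A1, DCN and LYZ. It also holds for the FOXA2 probe set at -0.11. The gene summary was tested on simulated data. Analysis used Python 3.11.15, numpy 2.4.6, pandas 2.3.3 and matplotlib 3.10.9. Alternatives were other probe set summaries, a pseudocount, centring of the arrays, a filter on dim probe sets and a threshold of 1.5-fold.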

Additional observations from a re-analysis of the deposited data

How the results depend on the processing

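With 1 array per group, no replicate could be left out. No paired analysis was possible with 1 array per group, and the sample titles give no replicate number. Under 7 alternatives (mean or median of the probe sets, no probe sets open to cross-hybridisation, a pseudocount of 32, arrays centred on their medians or on the mean of brighter probe sets, no dim probe sets) the ISL1 difference ran from 1.19 to 1.25 and that of MNX1 from -0.77 to -0.73, and the members' median from -0.17 to -0.03. ISL1 and MNX1 have 1 bright probe set each, so only the pseudocount and the centrings could move them. PAX6 was at 0.05 without probe sets open to cross-hybridisation, and PDX1 ran from -0.04 to 0.08. The medians of the other endocrine lineage factors (-0.08 to 0.11) and of the progenitor factors (-0.04 to 0.06) also changed sign.

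At 1.5-fold in place of 2-fold, where 2.61% of all genes were higher and 4.21% lower, 1 of 8 members was lower, 2 of 24 other endocrine lineage factors were higher, 2 of 21 progenitor factors were higher and 3 lower, 1 of 14 relatives of ISL1 was lower, 3 of 26 islet targets were higher and 2 lower, 1 of 15 chromatin partners was higher, 1 of 12 neuroendocrine markers was lower, and 1 of 9 ductal markers was higher and 2 lower. Without dim probe sets the acinar median was -0.53, on 1 gene. Leukocyte markers over 2-fold lower numbered 1 with the mean or median of the probe sets or without those open to cross-hybridisation, and 0 with a pseudocount or without dim probe sets.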
